A study of Homo sapiens with 12 samples.

Results

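Transcripts of 10 hepatic acute phase genes were examined in Huh7 cells with and without knockdown of FAM111B. The genes were SAA1, SAA2, SAA4, CRP, HP, ORM1, ORM2, LCN2, ITIH4 and SERPINA3, taken by name from the 60666 genes of the deposited table. They were chosen by their biology and with their values in this same contrast already known, SAA1 being among the genes with the largest differences in it, so their differences are given as a description and carry no test. Huh7 is an established human hepatocellular carcinoma line that secretes many plasma proteins of the hepatocyte. The control group held 3 libraries from cells with a control sequence, and the shFAM111B group held 3 libraries from cells with a lentiviral short hairpin RNA against FAM111B. According to the study's methods, such stable lines were selected with puromycin, and the labels do not say whether the libraries of a group came from separate cultures, so their spread may be technical. Only 1 hairpin label was present, cells of both groups were unstimulated as far as the labels say, and Hep3B cells were not analysed here.

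The acute phase response is the change in liver secretion that follows infection or injury. Interleukin-6 (IL-6) signals through its receptor, the shared subunit gp130 (IL6ST), Janus kinases and STAT3, while interleukin-1 (IL-1) and tumour necrosis factor act through NF-κB, and the C/EBP factors act on many of the same promoters. Genes for serum amyloid A, C-reactive protein and the orosomucoids respond to both kinds of cytokine together, whereas the fibrinogen chains and SERPINA3 respond mainly to IL-6-like cytokines.

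The promoters of LCN2 and SAA4 are shown because the transcripts of both genes were higher in shFAM111B cells and because they hold motifs of this system. A promoter entry (RefSeq, GRCh38.p14) was at hand for 6 of the 10 genes. The 250 bases before each start site were searched on both strands for the κB motif, for the C/EBP motif TTGCNNAA and for the STAT motif TTCNNNGAA. Each sequence below is the longest part of that window outside annotated exons of its strand, printed 5′ to 3′ along the gene, with motif matches in capitals.
LCN2, chr9:128149265-128149440, plus strand: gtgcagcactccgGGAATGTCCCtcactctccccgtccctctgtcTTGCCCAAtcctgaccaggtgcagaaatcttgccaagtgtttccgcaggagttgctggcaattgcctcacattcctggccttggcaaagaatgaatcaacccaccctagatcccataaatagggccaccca
SAA4, chr11:18236894-18237052, minus strand: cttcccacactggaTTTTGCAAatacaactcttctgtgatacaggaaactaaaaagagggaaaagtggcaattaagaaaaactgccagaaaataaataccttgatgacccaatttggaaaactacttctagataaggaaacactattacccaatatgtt
In the LCN2 sequence, the first capitals are a κB match on the opposite strand at positions -175 to -166 from the start site, and the second are a C/EBP match at -143 to -136. SAA4 held 3 C/EBP matches, of which the one at -236 to -229 is shown. Its other C/EBP matches lay nearer the start site, in the part left out and inside the annotated gene span. The start sites are those of RefSeq, and the LCN2 sequence too lies inside the gene span given further below. ITIH4 held 1 STAT match, and the windows of ORM1, CRP and SERPINA3 held none of these letters. No matches overlapped each other. Over all 35116 promoters of this length, 9.96% held the κB motif, 9.05% the C/EBP motif and 6.57% the STAT motif, so a match in a window is a description and no evidence of binding.

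FAM111B itself was read first, as a check of the labels. Its level was 7.84, 8.29 and 7.99 TPM (a share of all transcripts of the library, corrected for transcript length) in the 3 control libraries and 0.96, 1.13 and 0.84 TPM in the shFAM111B libraries. The groups were far apart, and FAM111B fell by 2.20 on the log2(TPM + 1) scale (standard error 0.113, adjusted p = 6.09e-06, limma, Benjamini-Hochberg over 14394 genes). A gene was called when its fold was at least 2 and its unadjusted P was under 0.05. Across all tested genes, 981 (6.82%) were called higher and 3409 (23.7%) were called lower in shFAM111B cells, and in 10831 genes (75.2%) the 3 libraries of one group did not overlap the 3 of the other. The median of all tested genes was -0.36 on the log2 scale. With median-of-ratios scaling the calls were 1969 higher and 1841 lower, and with quantile normalization 1694 and 1849. With protein-coding nuclear genes only they were 502 and 3818, of 12024 tested genes. With the trend on transcript length and expression removed they were 1364 (9.57%) and 1309 (9.19%), of 14251 tested genes.

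Against that background, 9 of the 10 acute phase genes passed the filter on low values. SAA1, SAA2 and LCN2 met the rule for a higher call, none met it for a lower one, and the other 6 met neither. Libraries of the groups did not overlap for 5 genes that were higher (SAA1, SAA2, SAA4, ORM2 and LCN2) and 2 that were lower (HP and SERPINA3) in shFAM111B cells. Because the genes were chosen with these values known, nothing is read from those counts. In bulk RNA, fewer cells expressing a gene and less RNA per cell cannot be told apart.

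**Figure D1:**
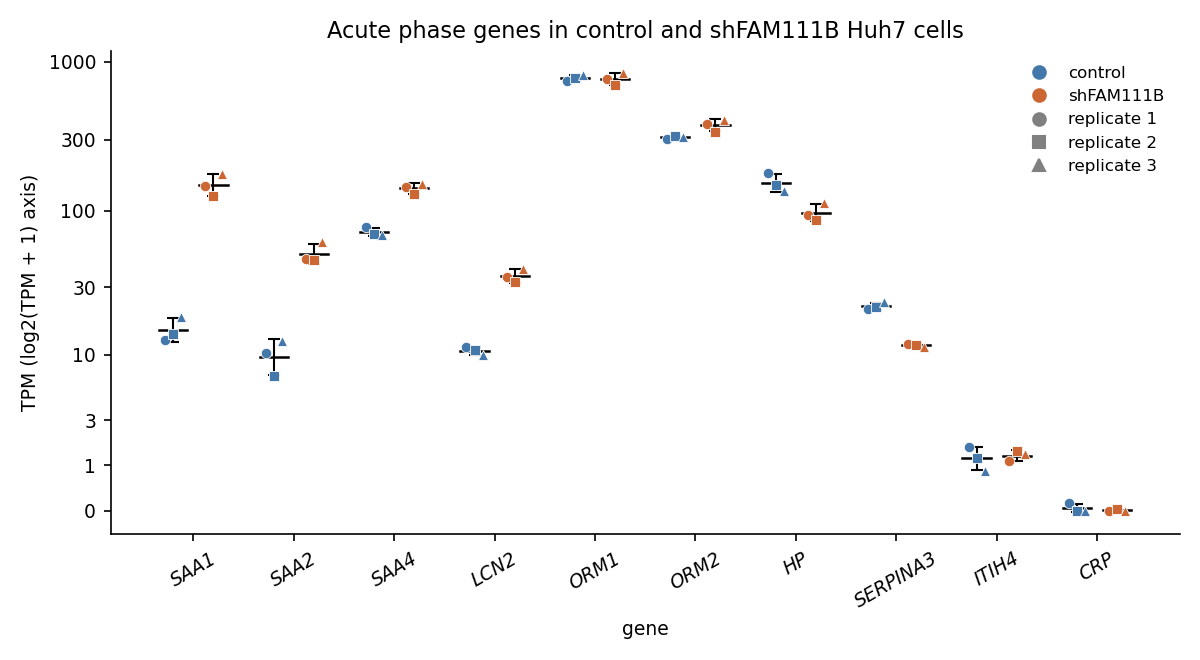
Level of each acute phase gene in every library, on a log2(TPM + 1) axis labelled in TPM. Points are libraries (blue control, orange shFAM111B, one symbol per replicate number), and black bars are the mean ± SD of the log2 values (n = 3). SAA1 went from 15.2 to 149.8 TPM, while ORM1 stayed near 770 TPM in both groups.

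Of the 10 genes, SAA1 and SAA2 showed the widest differences. SAA1 (ENSG00000173432, chr11:18266174-18269977, plus strand, GRCh38) encodes an apolipoprotein of high-density lipoprotein that is the classic strongly induced acute phase protein. Its level was 12.76, 14.16 and 18.72 TPM in control cells and 147.26, 126.04 and 176.02 TPM in shFAM111B cells. The lowest shFAM111B library was 6.73 times the highest control library, and the group means were 15.2 ± 3.12 and 149.8 ± 25.1 TPM (SD, n = 3), a 9.84-fold ratio. On the log2(TPM + 1) scale the difference was 3.22 (standard error from the group SDs 0.208). Among all genes listed, the mean rank of SAA1 by TPM moved from place 6492 to place 901.

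SAA2 (ENSG00000134339, chr11:18239223-18248643, minus strand), the neighbouring near-copy that is induced together with SAA1, was at 10.21, 6.88 and 12.54 TPM in control cells and at 47.03, 45.91 and 61.13 TPM in shFAM111B cells. All shFAM111B libraries lay above all control libraries, with a 5.20-fold ratio of means and a log2 difference of 2.29 (standard error 0.263). SAA4 (ENSG00000148965, chr11:18231349-18236893, minus strand), which encodes the constitutive family member and is hardly induced in the acute phase, was at 77.06, 69.47 and 68.82 TPM in control cells and at 145.26, 128.98 and 150.74 TPM in shFAM111B cells. The groups did not overlap, and the ratio of 1.97 (log2 difference 0.97, standard error 0.0848) fell just short of the fold of 2 that a call needs. Without control replicate 1, or without shFAM111B replicate 2, SAA4 also met the rule and the number of genes called was 4, as it was with median-of-ratios scaling (1.40) and quantile normalization (1.03).

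SAA1 and SAA2 share sequence, so reads may have been divided between them in a way the table does not show. Of all 75-base windows in annotated SAA1 transcripts, 35.03% also occurred in SAA2 or the readthrough transcript SAA2-SAA4, and for SAA4 62.0% occurred in SAA2-SAA4. In the sum of SAA1, SAA2 and SAA2-SAA4, a read shared by SAA1 and SAA2 counts either way, though with a different correction for length. SAA2-SAA4 also shares 60.5% of its windows with SAA4, which lies outside the sum. The sum was 26.64, 28.82 and 38.28 TPM in control cells and 208.05, 187.23 and 250.31 TPM in shFAM111B cells, 6.89-fold higher. The groups did not overlap for the sum either. The makeup of the family differed too. SAA1 made up 15.7% ± 2.97 of the TPM of SAA1, SAA2 and SAA4 in control cells and 43.5% ± 1.75 in shFAM111B cells, while the share of SAA4 was 74.2% ± 4.70 and 41.5% ± 2.29 (SD, n = 3). The control cells therefore carried mainly the constitutive SAA4 transcript, and in shFAM111B cells SAA1 and SAA4 were at levels that overlapped between libraries. The ratio of SAA1 to SAA2 was between 1.25 and 2.06 in control cells and between 2.75 and 3.13 in shFAM111B cells, with the same reservation about shared reads.

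LCN2 (ENSG00000148346, chr9:128149071-128153455, plus strand) encodes lipocalin-2, which binds iron-laden bacterial siderophores. It was at 11.44, 10.75 and 9.93 TPM in control cells and at 35.17, 32.5 and 40.37 TPM in shFAM111B cells. The lowest shFAM111B library was 2.84 times the highest control library, the ratio of means was 3.36, and the log2 difference was 1.66 (standard error 0.104). No 75-base window of annotated LCN2 transcripts occurred identically in another annotated gene. Shorter or nearly identical shared stretches were not counted.

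The orosomucoids were the most abundant of the genes and differed little. ORM1 (ENSG00000229314, chr9:114323056-114326475, plus strand) and ORM2 (ENSG00000228278, chr9:114329869-114333252, plus strand) encode α1-acid glycoproteins, plasma carriers of basic drugs. ORM1 was at 736.16, 779.56 and 808.19 TPM in control cells and 765.48, 701.27 and 841.87 TPM in shFAM111B cells, so that the groups overlapped and the means, 774.6 ± 36.3 and 769.5 ± 70.4 TPM, were close. ORM2 was at 300.82, 319.29 and 310.54 TPM in control cells and 382.84, 339.95 and 404.51 TPM in shFAM111B cells, apart by a small margin and with a 1.21-fold ratio. These genes share 34.7% (ORM1) and 41.8% (ORM2) of their windows with each other, and their sum overlapped between the groups (1085 ± 42.6 and 1145 ± 103 TPM). The sign of the difference depended on the scaling for both genes. ORM1 ranged from -0.66 with the length and expression trend removed to 0.42 with median-of-ratios scaling, and ORM2 from -0.57 to 0.71 under the same settings.

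HP and SERPINA3 were lower in shFAM111B cells. HP (ENSG00000257017, chr16:72054592-72061055, plus strand) encodes haptoglobin, which captures free haemoglobin. It was at 178.0, 149.55 and 134.59 TPM in control cells and at 94.12, 86.46 and 111.91 TPM in shFAM111B cells, a ratio of 0.633 with no overlap. The closely related HPR shares 7.16% of the HP windows and overlapped between the groups, and the sum of HP and HPR was still lower in each shFAM111B library (171.0 ± 22.1 against 110.9 ± 13.6 TPM). SERPINA3 (ENSG00000196136, chr14:94612377-94624055, plus strand), which encodes the protease inhibitor α1-antichymotrypsin, was at 21.07, 21.89 and 23.58 TPM in control cells and 11.89, 11.86 and 11.32 TPM in shFAM111B cells. All shFAM111B libraries lay below all control libraries and were the most even of the 10 genes (coefficient of variation 2.74%), and the ratio was 0.527 (log2 difference -0.87, standard error 0.0503). An overlapping annotated gene, AL049839.2, shares 28.7% of the SERPINA3 windows and was also lower, at 2.87 ± 0.246 and 0.827 ± 0.232 TPM.

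The last pair was barely present. ITIH4 (ENSG00000055955, chr3:52812975-52831479, minus strand), an inter-α-trypsin inhibitor heavy chain, was at 1.67, 1.24 and 0.85 TPM in control cells and 1.13, 1.51 and 1.37 TPM in shFAM111B cells, with overlapping groups. Of its windows, 62.2% occur in the overlapping gene AC006254.1. That gene was lower in shFAM111B cells (0.877 ± 0.0321 and 0.250 ± 0.070 TPM, groups apart) but too low for the filter. How reads were divided between these genes is not known. CRP (ENSG00000132693, chr1:159712289-159714589, minus strand) encodes the pentraxin measured clinically as C-reactive protein. It was listed at 0.12, 0 and 0 TPM in control cells and at 0, 0.03 and 0 TPM in shFAM111B cells, was not tested, and is given no fold. CRP, which responds to the same cytokines as SAA1 in liver, was thus at or near 0 in both groups.

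The order of levels changed with the group. In control cells it ran ORM1, ORM2, HP, SAA4, SERPINA3, SAA1, LCN2, SAA2, ITIH4 and CRP, where only LCN2 and SAA2 overlapped with their neighbour. In shFAM111B cells it ran ORM1, ORM2, SAA1, SAA4, HP, SAA2, LCN2, SERPINA3, ITIH4 and CRP, where only SAA1 and SAA4 overlapped. HP was 10.6 ± 3.38 times SAA1 in control cells and 0.654 ± 0.0281 times SAA1 in shFAM111B cells. Together the genes summed to 1370 ± 19.4 and 1635 ± 162 TPM. Orosomucoid transcripts made up 79.2% ± 2.03 of that sum in control cells and 70.1% ± 0.730 in shFAM111B cells, and the serum amyloid A transcripts 7.07% ± 0.427 and 20.9% ± 0.582.

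Within the shFAM111B group, replicate 3 was the highest library and replicate 2 the lowest for SAA1, SAA2, SAA4, LCN2, ORM1, ORM2 and HP alike, but not for SERPINA3, ITIH4 or CRP. Dividing by ORM1 of the same library narrowed that spread for SAA1, SAA2, SAA4, LCN2 and HP. LCN2 over ORM1 was 0.0459, 0.0463 and 0.0480 in the shFAM111B libraries, against 0.0155, 0.0138 and 0.0123 in the control libraries. SAA1 over ORM1 was 0.192, 0.180 and 0.209 against 0.0173, 0.0182 and 0.0232, a 9.91-fold ratio of means. SERPINA3 over ORM1 was 0.0155, 0.0169 and 0.0134 against 0.0286, 0.0281 and 0.0292. These ratios do not depend on a scaling factor applied to a whole library. In them the serum amyloid A genes and LCN2 were higher relative to ORM1, and HP and SERPINA3 lower, in each of the 3 shFAM111B libraries. Settings that treat genes of a library unequally turned the second part around, for both genes or for SERPINA3 only. With the trend on length and expression removed, HP (-0.42) and SERPINA3 (-0.49) lay above ORM1 (-0.66). With quantile normalization SERPINA3 (-0.37) lay above ORM1 (-0.43), while HP (-0.68) stayed below ORM1.

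**Figure D2:**
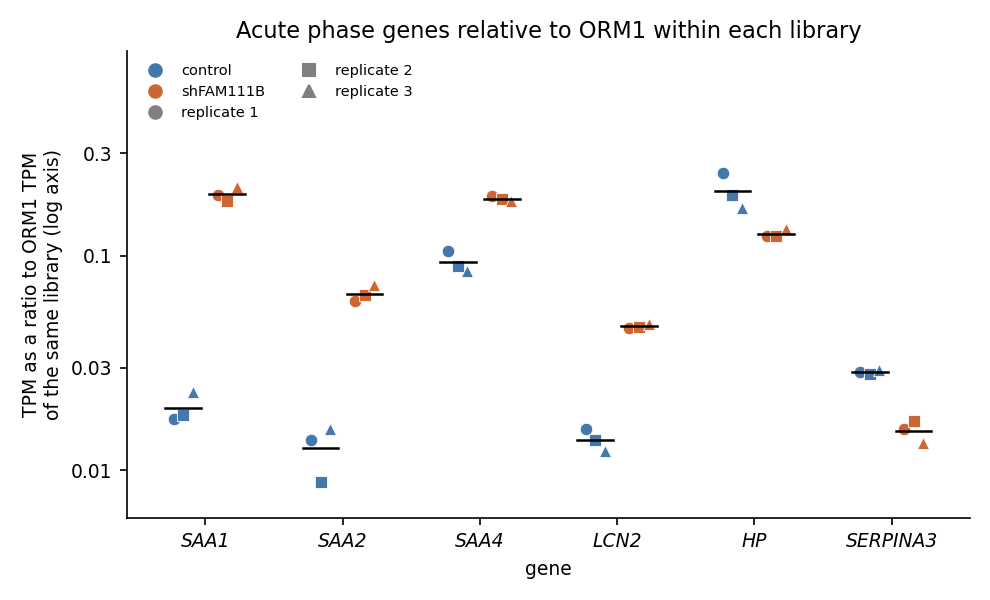
TPM of 6 acute phase genes divided by the TPM of ORM1 in the same library, on a log axis. Points are libraries (blue control, orange shFAM111B, one symbol per replicate number) and black bars are group means (n = 3). LCN2 relative to ORM1 lies between 0.0459 and 0.0480 in the shFAM111B libraries, and SAA4 between 0.179 and 0.190.

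Transcript length moved with the contrast across all genes, and the acute phase genes that were higher are short. Among tested genes whose longest annotated transcript has up to 1000 nucleotides the median log2 difference was 0.43, with 24.6% called higher and 10.6% called lower, whereas for 4000 to 8000 nucleotides it was -0.78, with 37.9% called lower. SAA1 (675 nucleotides), SAA4 (727), LCN2 (877), ORM1 (802) and ORM2 (760) belong to the shortest class, SAA2 (1022) to the next, and HP (3024), ITIH4 (3336) and SERPINA3 (2660) to the middle one. SAA1, SAA2 and LCN2 lay above the upper quartile of their classes, SAA4 and the orosomucoids lay inside the quartiles, and SERPINA3 lay just below the lower quartile. With the trend on length and expression removed, the log2 difference was 2.30 for SAA1, 1.88 for SAA2 and 1.11 for LCN2, but 0.03 for SAA4, -0.42 for HP and -0.49 for SERPINA3. The difference of SAA4 thus lay close to the fitted value for tested genes of its length and level.

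**Figure D3:**
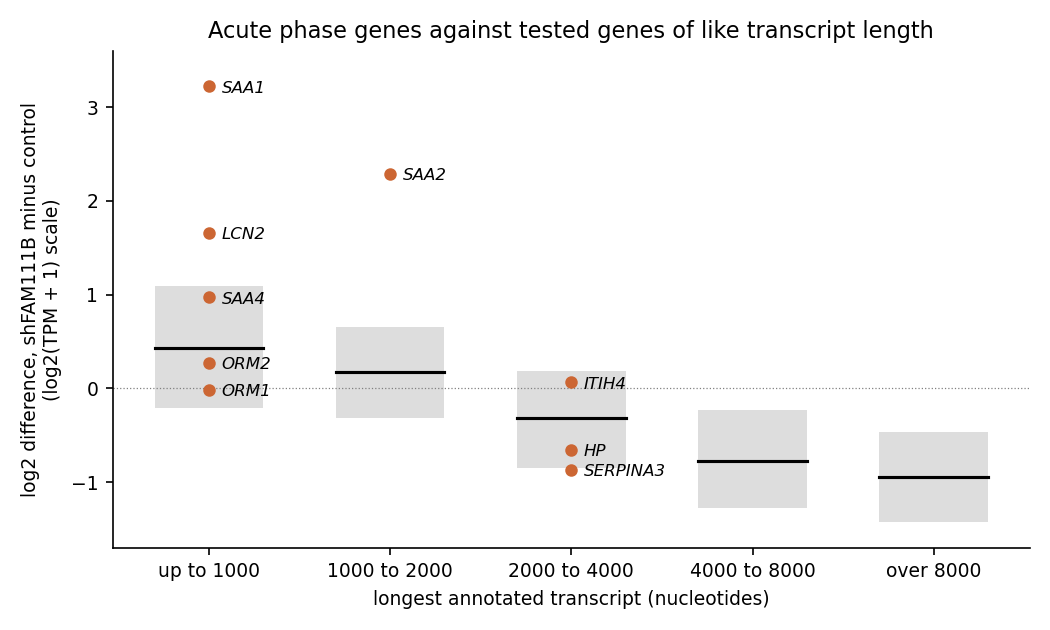
Log2 difference (shFAM111B minus control, log2(TPM + 1) scale) of the 9 tested acute phase genes, orange points, by class of longest annotated transcript. Grey boxes span the quartiles of all tested genes of that class and black lines mark the class medians, which run from 0.43 for the shortest to -0.94 for the longest class.

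Under 5 ways of scaling, SAA1 differed by 2.30 to 3.64, SAA2 by 1.88 to 2.70 and LCN2 by 1.11 to 2.08 on the log2 scale, and SAA4 by 0.03 to 1.40. HP ranged from -0.78 to -0.22 and SERPINA3 from -0.999 to -0.37. These genes kept their sign throughout, and ORM1, ORM2 and ITIH4 did not. Relative to the median gene under each setting, SAA1 differed by 2.32 to 3.69 and SERPINA3 by -0.51 to -0.34.

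**Figure D4:**
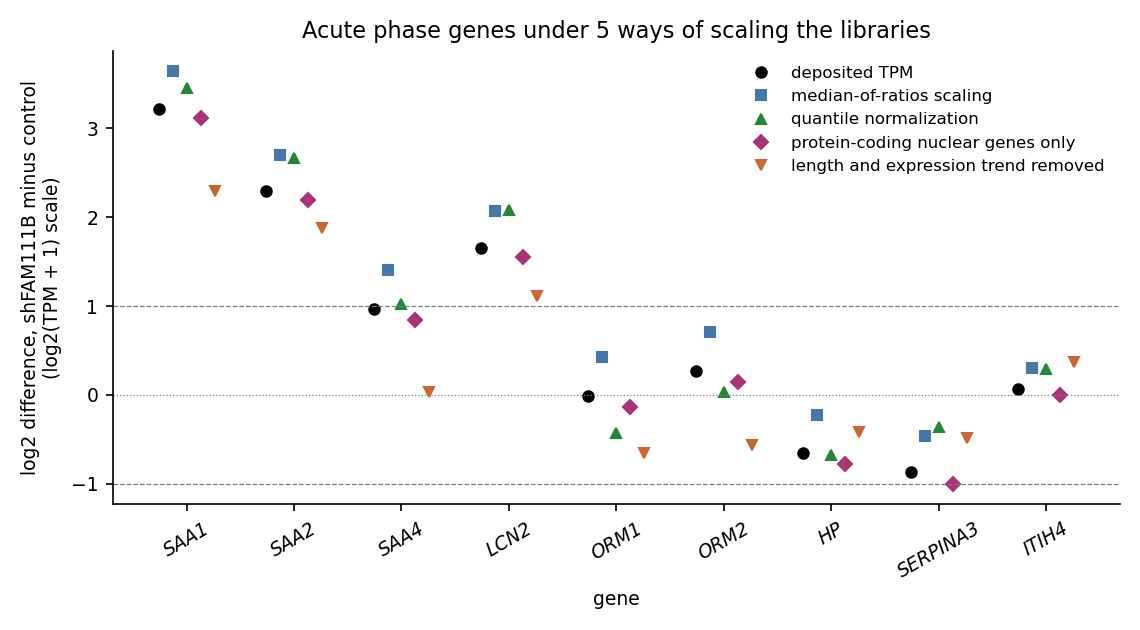
Log2 difference (shFAM111B minus control, log2(TPM + 1) scale) of the 9 tested acute phase genes under 5 scalings of the libraries, one symbol per scaling. Dashed lines mark a fold of 2 in either direction. SAA1, SAA2 and LCN2 lie above the upper dashed line under all 5 scalings, and ORM1 and ORM2 cross 0.

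Other genes of the acute phase network were then counted from lists written out for this purpose, none of which holds a gene of the 10. The 6 lists hold signalling genes and transcription factors as well as other acute phase proteins and induced targets. Of 105 listed genes, 99 were tested, 4 rose and 44 fell (4.04% and 44.4%, beside 6.82% and 23.7% of all tested genes). Their median log2 difference was -0.78, beside -0.36 for all genes. By unadjusted P under 0.05 alone (limma), without the fold of 2, 17 were higher and 75 lower. Of all 14394 tested genes, 10665 met that P in either direction, and 64.7% were lower whatever their P. With median-of-ratios scaling, 11 of the 99 rose and 29 fell, beside 1969 and 1841 of all tested genes, and with the trend on length and expression removed 5 rose and 27 fell, beside 9.57% and 9.19%.

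Of 11 listed cytokine ligands, 3 passed the filter. IL6, IL1A, IL1B and TNF were under 1 TPM in every library and were not tested, with IL6 at 0.14, 0 and 0.05 TPM in control cells and 0.54, 0.18 and 0.2 TPM in shFAM111B cells. LIF, an IL-6 family cytokine, fell from 1.82 ± 0.931 to 0.250 ± 0.010 TPM, and was no longer called without control replicate 3 or with median-of-ratios scaling (-0.94), quantile normalization (-0.997) or the trend removed (-0.79). IL11, another cytokine of that family, was at 0.16, 0.1 and 0.24 TPM in control cells and 0.98, 1.16 and 1.52 TPM in shFAM111B cells, apart but too low for the filter. CLCF1, also of that family, was at 7.90 ± 0.590 and 5.89 ± 0.874 TPM and did not meet the fold. TGFB1, the most abundant of the 11 listed ligands, was at 21.9 ± 0.813 and 41.1 ± 2.22 TPM, which fell short of the fold for a call but met it with median-of-ratios scaling (1.30), quantile normalization (1.28) and the trend removed (1.26).

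In the IL-6 arm, the median longest annotated transcript had 5047 nucleotides, beside 3212 for all tested genes. Among all tested genes of 4000 to 8000 nucleotides, 37.9% were called lower. Of the 16 tested genes of the arm, 10 fell (62.5%, beside 23.7% of all tested genes) and 1 rose, with a median of -1.07. With median-of-ratios scaling 5 fell (31.25%), and with quantile normalization 4 (25.0%), beside 12.8% of all tested genes under either setting. IL6ST, the gp130 signalling subunit, was at 55.95, 55.46 and 53.88 TPM in control cells and at 8.9, 9.62 and 8.17 TPM in shFAM111B cells. This was a difference of -2.51 (standard error 0.0740, adjusted p = 1.95e-06, limma). ADAM17, the protease that sheds the IL-6 receptor, fell by 2.55, and PTPN11, the phosphatase SHP2 that binds gp130, fell by 2.40 on the log2 scale. STAT3 was at 27.6 ± 0.523 and 14.8 ± 0.589 TPM (log2 difference -0.86), IL6R at 3.17 ± 0.507 and 1.497 ± 0.242 TPM (-0.74), and the feedback inhibitor SOCS3, a STAT3 target, at 2.84 ± 0.336 and 1.64 ± 0.138 TPM (-0.54), all lower without reaching the fold of 2 on the log2(TPM + 1) scale, although the ratio of the IL6R means was 0.472. SOCS1, another inhibitor of Janus kinases, was the gene that rose, from 2.09 ± 0.304 to 5.24 ± 0.663 TPM, and was no longer called without control replicate 2, without shFAM111B replicate 1 or with protein-coding nuclear genes only (0.96).

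The IL-1 and tumour necrosis factor arm held 24 tested genes, with a median of -0.91. Of these, 11 fell (45.8%, beside 23.7% of all tested genes) and none rose (beside 6.82%). With median-of-ratios scaling or quantile normalization 7 fell and 1 rose (29.2% and 4.17%). Of all tested genes, 12.8% fell under either setting, and 13.7% and 11.8% rose. By unadjusted P under 0.05 alone (limma), 2 were higher and 21 lower, beside 10665 of 14394 tested genes in either direction. RELA, the transactivating subunit of NF-κB, fell from 56.9 ± 1.29 to 18.9 ± 0.182 TPM (log2 difference -1.55, standard error 0.0527). NFKB1, which encodes its p50 partner, was at 39.9, 36.36 and 37.84 TPM in control cells and 8.71, 10.01 and 7.99 TPM in shFAM111B cells. IRAK2, a kinase of the IL-1 receptor complex, fell by 2.12 on the log2 scale. IL1RAP, the IL-1 receptor accessory chain, fell by 1.58 (-0.75 with the trend removed, where it did not meet the fold), with shFAM111B replicate 2 at 19.18 TPM apart from 8.32 and 7.81 TPM in the other libraries of its group. With the trend on length and expression removed, 4 genes of this arm (16.7%) and 4 of the IL-6 arm (25.0%) fell, beside 9.19% of all tested genes. Among them were RELA, NFKB1, IRAK2, IL6ST, ADAM17 and PTPN11, while STAT3 was at -0.07 and IL6R at -0.05.

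Among 14 hepatic transcription factors, 4 fell (28.6%, beside 23.7% of all tested genes) and none rose. In that list, 9 were lower and 4 higher by unadjusted P under 0.05 alone (limma), beside 10665 of 14394 tested genes in either direction. With median-of-ratios scaling 3 fell and 2 rose (21.4% and 14.3%, beside 12.8% and 13.7% of all tested genes). NR3C1, the glucocorticoid receptor, fell from 10.3 ± 0.380 to 2.06 ± 0.189 TPM, ONECUT1 by 1.54, NR5A2 by 1.47 and HNF4A, a master regulator of hepatocyte genes, by 1.25 on the log2 scale. HNF4A did not meet the fold with median-of-ratios scaling (-0.82) or with the trend on length and expression removed (-0.59), nor NR5A2 with quantile normalization (-0.95) or the trend removed (-0.60), nor NR3C1 with the trend removed (-0.96). Of the 4 C/EBP factors listed, 3 were higher and CEBPG was lower (53.1 ± 1.495 and 34.7 ± 1.64 TPM, log2 difference -0.60), none of them past the fold of 2 on the log2(TPM + 1) scale. CEBPB, the C/EBP most closely tied to the acute phase, was at 15.3 ± 1.79 and 31.2 ± 1.69 TPM (log2 difference 0.99), CEBPD at 125.1 ± 10.8 and 184.7 ± 13.01 TPM (0.56), and CEBPA at 85.2 ± 7.44 and 138.0 ± 5.78 TPM (0.69). For CEBPA, CEBPB and CEBPD the shFAM111B libraries lay above the control libraries. Over the 5 scalings the difference was 0.88 to 1.43 for CEBPB, 0.43 to 0.99 for CEBPD and 0.57 to 1.12 for CEBPA, and CEBPB met the rule under 3 of them and whenever control replicate 1 or 2 or shFAM111B replicate 2 or 3 was left out. With the trend on length and expression removed, 1 factor fell and 1 rose (7.14% each, beside 9.19% and 9.57% of all tested genes).

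**Figure D5:**
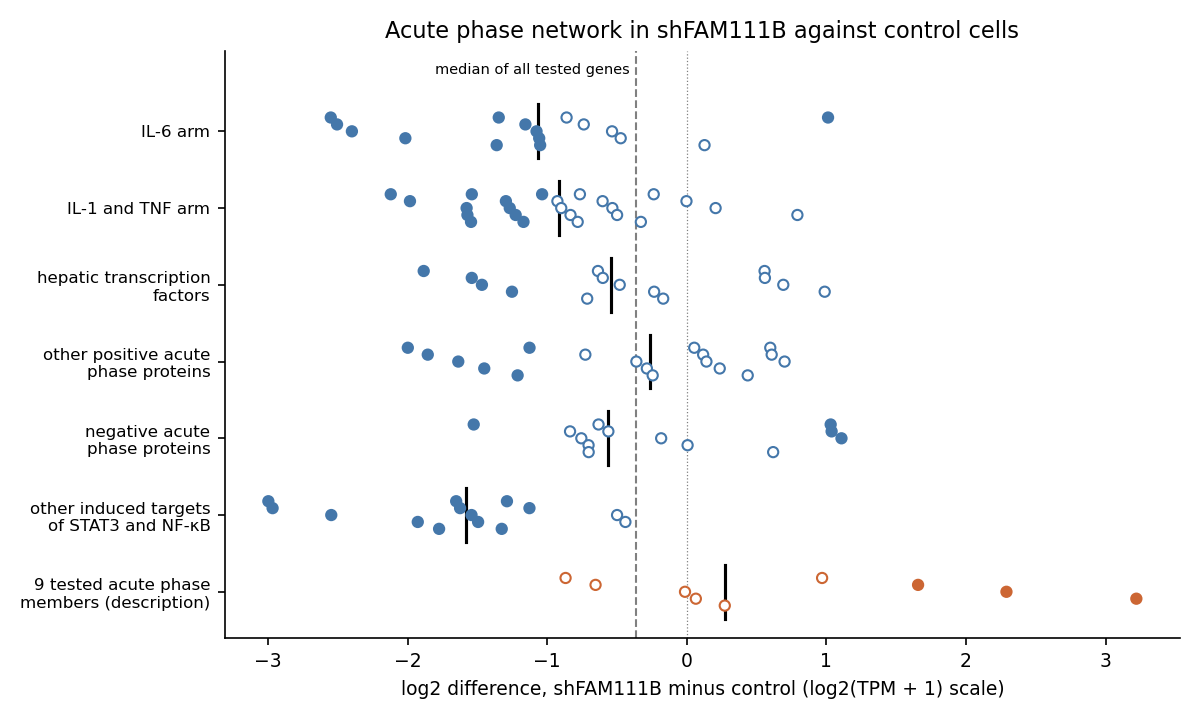
Log2 difference (shFAM111B minus control, log2(TPM + 1) scale) of each tested gene in the 6 lists of the acute phase network, and of the 9 tested acute phase genes in orange for comparison. Filled points met the rule for a call, open points did not, short black lines are list medians, and the dashed line is the median of all tested genes, -0.36. Induced targets of STAT3 and NF-κB have a median of -1.58, and none of them lies above 0.

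The acute phase genes, chosen with their values known, went both ways, with SAA1, SAA2 and LCN2 higher and HP and SERPINA3 lower. Other induced targets of STAT3 and NF-κB were lower as a group. Of 14 tested, 12 fell (85.7%, beside 23.7% of all tested genes) and none rose (beside 6.82%), with a median of -1.58. All 14 were lower by unadjusted P under 0.05 alone (limma), a P that 10665 of 14394 tested genes met in either direction. TNFAIP3, which encodes the NF-κB feedback inhibitor A20, was at 34.33, 33.87 and 31.41 TPM in control cells and 3.18, 3.68 and 3.27 TPM in shFAM111B cells. That was a difference of -2.97 (standard error 0.0854, adjusted p = 1.89e-06, limma). BIRC3, an NF-κB-induced inhibitor of apoptosis, fell by 2.997, and NFKBIZ, which encodes the NF-κB coactivator IκBζ, by 2.55 on the log2 scale. All 6 tested targets with transcripts up to 2000 nucleotides (CXCL8, CXCL1, CXCL2, CXCL10, CCL20 and JUNB, named after their values were seen) fell. Of all 3713 tested genes of that length, 311 fell and 619 rose. CXCL1 did not meet the fold with median-of-ratios scaling (-0.70), nor CXCL2 with quantile normalization (-0.9998). CCL20, the most abundant, was at 826.55, 810.27 and 832.15 TPM in control cells and 342.39, 347.68 and 319.79 TPM in shFAM111B cells, and did not meet the fold with median-of-ratios scaling (-0.85). With median-of-ratios scaling 9 of the 14 fell (64.3%, beside 12.8% of all tested genes). Under quantile normalization, or with the trend on length and expression removed, 11 fell (78.6%, beside 12.8% and 9.19%).

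Of 18 other positive acute phase proteins tested, 6 fell (33.3%, beside 23.7% of all tested genes) and none rose, with a median of -0.26. Among these 18, 10 were lower and 6 higher by unadjusted P under 0.05 alone (limma), beside 10665 of 14394 tested genes in either direction. With median-of-ratios scaling 3 rose and 4 fell (16.7% and 22.2%, beside 13.7% and 12.8% of all tested genes). FGA, the fibrinogen α-chain, fell from 1363 ± 58.5 to 375.9 ± 6.54 TPM, and CP, the copper carrier ceruloplasmin, from 61.0 ± 5.68 to 25.9 ± 3.54 TPM. CP did not meet the fold with median-of-ratios scaling (-0.79), quantile normalization (-0.90) or the trend on length and expression removed (-0.58). Negative acute phase proteins, which liver makes less of during inflammation, were split. Of 13 tested, 3 rose and 1 fell (23.1% and 7.69%, beside 6.82% and 23.7% of all tested genes), and the median was -0.56. By contrast, 4 were higher and 7 lower by unadjusted P under 0.05 alone (limma), beside 10665 of 14394 tested genes in either direction. APOA1, the main protein of high-density lipoprotein, which SAA1 displaces during inflammation, rose from 3233 ± 127 to 7010 ± 921 TPM, and TTR, transthyretin, rose from 835.0 ± 3.26 to 1718 ± 118 TPM. PON1 also rose (log2 difference 1.03), and ITIH2, a heavy chain related to ITIH4, fell by 1.53. With protein-coding nuclear genes only, none of the 3 that rose met the fold of 2. TTR was also not called with quantile normalization (0.55), with the trend removed (0.65) or without shFAM111B replicate 3, and PON1 not without control replicate 3.

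Markers of other cells were read beside these values, since neutrophils and macrophages also make LCN2 and SAA. Of 8 leukocyte and neutrophil markers, 2 were tested and none was called. Their summed level was 16.54, 20.59 and 22.0 TPM in control cells and 24.25, 23.3 and 26.12 TPM in shFAM111B cells, most of it from CD68, a lysosomal gene, at 16.3 ± 1.30 and 22.6 ± 0.755 TPM. Among the neutrophil genes, ELANE was listed at 0 in every library, MPO was at no more than 0.02 TPM and S100A8 at no more than 0.49 TPM, while S100A9 was at 1.39, 2.96 and 2.93 TPM in control cells and 2.35, 0.54 and 2.49 TPM in shFAM111B cells. PTPRC, the pan-leukocyte marker CD45, was at 0.13, 0.04 and 2.39 TPM in control cells and at no more than 0.02 TPM in shFAM111B cells. The 9 hepatocyte markers were abundant in both groups. Of them, 3 rose and 2 fell (33.3% and 22.2%, beside 6.82% and 23.7% of all tested genes). ALB was at 6444 ± 41.1 and 4161 ± 185 TPM and AFP, the fetal albumin relative, at 7274 ± 200 and 23062 ± 1726 TPM. Of 6 fibroblast and endothelial markers, 3 were tested and none was called. The most abundant of them, COL1A2, was at 6.68 ± 1.30 and 10.1 ± 1.93 TPM, COL1A1 was at 0.670 ± 0.0954 and 0.263 ± 0.0551 TPM, VWF and CDH5 stayed at no more than 0.04 TPM, and the summed level was 11.1 ± 0.351 and 16.5 ± 3.29 TPM. The part of these other markers in the acute phase values was not tested.

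The protein-coding genes whose pattern over the 6 libraries lay closest to that of SAA1 came from other families. By root mean square distance of log2 values from the control mean, over 7050 genes averaging 10 TPM or more, the nearest were LGALS2 (0.174), TAGLN (0.198), RAMP1 (0.208), APOA4 (0.261) and S100A6 (0.282). LGALS2, a galectin, was at 9.38, 9.67 and 9.67 TPM in control cells and 98.57, 97.0 and 118.79 TPM in shFAM111B cells. TAGLN, an actin-binding protein, was at 16.31, 17.21 and 19.26 TPM in control cells and 149.3, 134.61 and 157.45 TPM in shFAM111B cells. APOA4 is, like SAA1, an apolipoprotein of high-density lipoprotein. SAA2 came in place 26, LCN2 in place 74, SAA4 in place 397 and SERPINA3 in place 4967. With 3 libraries a group, this measure is set mainly by the size of the difference between the groups.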

How the data were processed

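Per the labels, RNA from Huh7 control (n = 3) and shFAM111B (n = 3) cells was selected with oligo(dT), and the submitters' processing notes name RSEM, DESeq2 and hg38, without versions. Whether counting used strand is not given in the sources used here, so reads of overlapping genes on opposite strands may not be told apart. The authors deposited TPM values per gene and library, which keep no read depth, so the depth is unknown and limits on low values cannot be given. The deposited mean TPM, fold ratio, log2 fold change and p-value columns are the authors' own comparison and were not used.

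The 14394 of 60666 genes that reached 1 TPM in 3 or more libraries were fitted with limma 3.58.1 in R 4.3.3 (limma-trend on log2(TPM + 1)), with no covariate. This scale understates the change of low genes. A call needed a fold of at least 2 and P under 0.05. Benjamini-Hochberg adjusted p-values are given beside it. An exact permutation test of 3 against 3 cannot go below a two-sided p of 0.1 and was not used. The acute phase genes, lists and tests were chosen with earlier results of these data known. Text names the 10 genes, FAM111B, fixed regulators (STAT3, IL6R, IL6ST, SOCS3, RELA, CEBPB, CEBPD, HNF4A), up to 3 called genes per list with the largest change, at least 5 TPM and groups apart, and the 5 genes nearest SAA1. Others were named after their values were seen. Some genes that this rule names are not reported here. Positions and lengths come from GENCODE v29 (58420 identifiers matched), where the longest transcript need not be the one expressed. Shared sequence was counted as identical 75-base windows of annotated transcripts. The loess trend on length and expression had a span of 0.75. Settings tried included the filter, a pseudocount of 0.1, leaving out each library, a replicate block, median-of-ratios scaling, quantile normalization and protein-coding nuclear genes only. On simulated data for this comparison (14399 genes), 199 of 200 genes changed 4-fold were recovered, with 51 false calls. The changed genes were drawn from those with higher control levels, and all other genes had no true difference. Unlike the real data, the simulation held no shift over most genes, so it cannot speak to such a shift or to low genes. No SAA1, SAA2, HP or ORM2 promoter was used here.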

Additional observations from a re-analysis of the deposited data

How the results depend on the processing

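Calls over all tested genes moved from 981 higher and 3409 lower to 1969 and 1841 with median-of-ratios scaling. They moved to 1694 and 1849 with quantile normalization. They moved to 634 higher, of 11853 tested genes, when at least 1 TPM was required in every library. Protein-coding nuclear genes only gave 502 higher of 12024 tested genes. Removing the trend on length and expression gave 1309 lower of 14251. Calls in the acute phase network moved from 4 higher and 44 lower to 11 and 29 with median-of-ratios scaling, to 0 higher with protein-coding nuclear genes only (limma, 14 higher by unadjusted P under 0.05 without the fold of 2), and to 27 lower with the trend removed. The causes were not tested. Leaving out each library in turn gave 918 to 1087 higher and 3362 to 3554 lower over all genes, and 3 to 5 higher and 43 to 45 lower in the network. SAA1 stayed between 3.10 and 3.37, SAA2 between 2.08 and 2.47 and LCN2 between 1.57 and 1.73 on the log2 scale. Of the acute phase genes that met the rule, none changed sign under any setting tried. Same-numbered libraries deviated together only weakly (correlations of 0.054, 0.035 and 0.091), and shFAM111B replicate 2 correlated better with control replicate 1, so the numbers were not taken as pairs. With a replicate block, calls were 996 higher and 3410 lower, and 4 and 44 in the network. No count test such as DESeq2 was run, because the table holds no counts. CRP had no value under the main filter, nor ITIH4 and FAM111B with 1 TPM required in every library. TPM gives no depth, so the precision of low values such as those of CRP, ITIH4 and IL6 is unknown.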

Other observations

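Neighbours of the serum amyloid A genes on chromosome 11 were read as well. Within 100000 bases of SAA1, 10 genes outside the family were listed and 2 were tested. HPS5, a subunit of a lysosome biogenesis complex, fell from 11.6 ± 0.880 to 3.88 ± 0.478 TPM, and GTF2H1, a subunit of the transcription factor TFIIH, fell from 26.8 ± 1.45 to 12.7 ± 0.118 TPM (log2 differences -1.37 and -1.02, adjusted p = 3.68e-05 and 1.59e-05, limma). Neither met the fold with median-of-ratios scaling (-0.996 and -0.61), quantile normalization (-0.87 and -0.54) or the trend on length and expression removed (-0.58 and -0.55). SAA3P, the family's pseudogene, was listed at 0 in every library.

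Relatives of the acute phase genes were also listed. Of 13 listed, 7 were tested, none met the rule for a lower call, and the 1 that rose was the readthrough SAA2-SAA4, which shares 89.7% of its windows with its neighbours and was no longer called without control replicate 1 or with the trend on length and expression removed (0.47). By unadjusted P under 0.05 alone (limma), 4 relatives were lower (LCN12, SERPINA4, SERPINA5 and SERPINA10) and 1 higher. Of all 14394 tested genes, 10665 met that P in either direction. ITIH1, from the ITIH4 gene cluster, was at 7.84 ± 0.220 and 6.53 ± 0.931 TPM. SERPINA5, from the SERPINA3 cluster, was at 107.3 ± 2.54 and 97.6 ± 0.653 TPM. Among 10 receptors and partners of the encoded proteins, 2 were tested and neither was called. SCARB1, a receptor for high-density lipoprotein that also binds serum amyloid A, was at 182.1 ± 6.45 and 145.4 ± 6.41 TPM. FPR2, CD163 and MMP9, the lipocalin-2 partner, were listed at 0 in every library.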
